A study of Bos taurus with 88 samples.

Results

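Haptoglobin (HP, ENSBTAG00000006354) and lactoferrin (LTF, ENSBTAG00000001292) were followed in the blood of newborn calves. They are 2 of the 24616 genes in the count tables, and were chosen by name, as blood transcripts of innate defence proteins, over every breed and age of the study. Whole blood of 22 calves was taken at 0, 48, 72 and 168 h after birth, which gave 88 RNAseq libraries, 1 per calf and age. The calves were 8 Holstein dairy calves (H), 7 calves of Charolais × Limousin cows (CL) and 7 calves of Limousin × Friesian cows (LF). H calves were separated from the dam and first fed its colostrum artificially at 5% of body weight, with more in the days after. CL and LF calves suckled their dams freely. Between the 72 and 168 h samples, H calves were moved from single pens to a group pen and changed to milk replacer with concentrate. In H calves, age and this change cannot be told apart over that interval. The sires of the CL and LF calves were Aberdeen Angus or Charolais bulls, so that breed refers to the cow. H and beef calves differed in breed, farm, feeding and housing together, and these cannot be told apart.

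Haptoglobin is an acute phase glycoprotein that binds free haemoglobin in plasma and so keeps its haem iron from microbes and from damaging tissue. The liver secretes most plasma haptoglobin, and granulocyte precursors also make it and store it in their granules. Lactoferrin is an iron-binding protein of the transferrin family that is held in the specific granules of neutrophils and is abundant in colostrum and milk. Its transcript is made mainly in maturing neutrophil precursors in the marrow. The values here are transcripts in blood cells, so neither the plasma proteins nor lactoferrin swallowed with colostrum were measured. In whole blood, fewer cells of a type and less RNA per cell cannot be told apart. The files used here, and the gene tables of the study, which list symbols alone, do not pair identifiers with symbols, so blood cell types were not checked against their marker genes.

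Each library held 10023822 to 39304404 reads counted on genes (median 22595526.5). Levels are given as CPM, the reads of a gene per 1000000 reads counted on genes, scaled to each library's TMM-adjusted size, and levels of HP and LTF were not compared with each other because gene lengths were not used. HP had 2851 to 65962 reads in a library and LTF had 4 to 709. A count of 3, taken as the smallest that can be shown, corresponds to 0.0763 to 0.299 CPM before the TMM adjustment. Both genes were above 3 reads in all 88 libraries, the lowest value being the 4 LTF reads of calf H1 at 168 h. Calf H6 stood apart at 0, 48 and 72 h, when 41.0%, 49.1% and 45.7% of its reads aligned to several places, against a median of 9.99% over all libraries. At those ages its TMM factors were 0.562, 0.444 and 0.393 against a median of 1.04, which raises its CPM above the unadjusted value. The 0 h library of calf LF1 had 73.9% of its reads on no gene, the highest share among the 88. Calls that are lost without these libraries are named beside their values. The labels' tag numbers tie each library to a calf, but the RNA numbers of the 168 h libraries of H1 and H3 break the run kept by the other H calves. Within-calf changes and correlations between ages that pool the calves at 168 h are therefore also given without these 2 calves. For H calves alone this was done only where stated, and fits with the calf as a replicate block were not run without them.

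HP was higher at birth than at the end of the first week in both beef groups, whereas no change of HP passed the test in H calves. In H calves at 0 h, HP ran from 429 CPM in calf H8 to 1541 CPM in calf H7, with a median of 1174 CPM. At 48 h the H calves ran from 323 to 1887 CPM, with a median of 912 CPM. Their median was 964 CPM at 72 h, between 516 CPM in calf H2 and 2450 CPM in calf H3. The 3 ranges overlapped widely, and on this scale H2 was the lowest H calf from 48 h onwards. Without TMM, H6 at 72 h had 347 CPM, below H2 at 477 CPM, against 882 and 516 CPM with it. For H6 the values without TMM were 612 CPM at 0 h and 320 CPM at 48 h, against 1090 and 722 CPM with it. By 168 h the median of H calves was 805 CPM, with H2 at 335 CPM and H3 at 2266 CPM. H3 stood well above the other H calves at that age, the next being H1 at 977 CPM.

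CL calves started at a median of 871 CPM of HP at 0 h, from 379 CPM in calf CL7 to 2363 CPM in calf CL2. At 48 h the CL calves lay between 224 CPM in CL4 and 832 CPM in CL1, with a median of 611 CPM. At 72 h they lay between 422 and 1333 CPM, with a median of 691 CPM and the same calves at the ends. At 168 h the median of CL calves was 249 CPM, the lowest of the 12 groups, from 138 CPM in CL1 to 1011 CPM in CL2. CL1 thus passed from the highest CL level at 72 h to the lowest at 168 h, while CL2, the highest at 0 h, was again far above the other 6 at 168 h, the next of which had 364 CPM.

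In LF calves HP was spread over 10.5-fold, 13.8-fold and 12.7-fold from the lowest to the highest calf at 0, 48 and 72 h, against at most 6.24-fold in the other groups of these ages. HP at 0 h ran from 213 CPM in calf LF5 to 2236 CPM in calf LF6, with a median of 746 CPM. It ran from 112 CPM in LF5 to 1552 CPM in LF2 at 48 h, with a median of 720 CPM. At 72 h it ran from 215 CPM in LF7 to 2732 CPM in LF4, with a median of 755 CPM. The highest calf was a different one at each of these ages. At 168 h the LF calves had closed up, from 130.9 CPM in LF7 to 593 CPM in LF2, with a median of 369 CPM. Ordered by median, the 3 earlier ages of H calves came first, CL calves at 0 h next, and LF and CL calves at 168 h last. None of the 66 pairs of groups had ranges of HP that were separate. Overlap of ranges does not test a difference, and how many other genes had overlapping ranges was not counted.

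**Figure D1:**
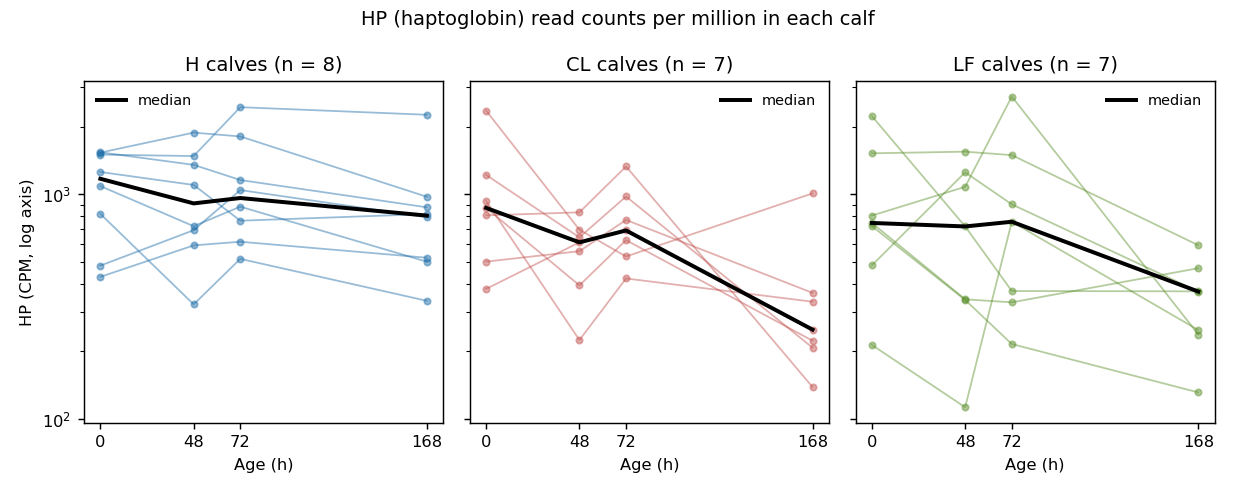
HP in CPM (log axis) against age in hours, in 1 panel per breed, with a thin line for each calf and a black line for the median. The medians of CL and LF calves drop between 72 and 168 h, to 249 and 369 CPM, while the median of H calves at 168 h is 805 CPM.

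Tests between ages used the counts of the 2 groups compared. These fits, and those with 1 calf left out, did not pair the samples of a calf. Fits with the calf as a replicate block do pair them. A gene was called when its edgeR adjusted p was under 0.05 and its fold change was at least 1.5. From 0 to 168 h, HP in CL calves fell by 1.49 on the log2 scale (SE 0.46, n = 7, edgeR adjusted p = 0.0237), a level 2.81-fold lower. In LF calves it fell by 1.5 (SE 0.44, n = 7, edgeR adjusted p = 0.0204), a level 2.82-fold lower. Of all genes tested between 0 and 168 h, 15.5% were called in either direction in the CL group and 14.8% in the LF group. Within calves, HP was lower at 168 h than at 0 h in 7 of 7 CL calves and in 6 of 7 LF calves, LF5 being higher by 0.22. The call in CL calves was lost without CL3, CL4 or CL5, with adjusted p from 0.0617 to 0.0723 and log2 changes from -1.49 to -1.35. In LF calves it was lost without LF4 or LF6, with adjusted p of 0.0567 and 0.0811. With the calf as a replicate block both calls stood. The change was -1.55 in CL calves (SE 0.28, edgeR adjusted p = 0.00433), where 2010 of 12876 genes were called. In LF calves it was -1.3 (SE 0.34, edgeR adjusted p = 0.0218), where 1856 of 12773 were called.

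In H calves the change of HP from 0 to 168 h was -0.31 (SE 0.36, n = 8, edgeR adjusted p = 0.516), with an approximate 95% interval from -1.01 to 0.40, and was not called, while 20.7% of genes were called. HP was lower at 168 h in 5 of the 8 H calves and higher in H3, H4 and H8, by at most 0.72, and in 4 of 6 it was lower without H1 and H3. Whether HP changed differently between breeds was tested directly. The change from 0 to 168 h was 1.21 higher in H than in CL calves on the log2 scale (SE 0.61, 95% interval 0.01 to 2.41, unadjusted p = 0.056), but edgeR's adjusted p was 0.350 and this was not called. Against LF calves the difference was also 1.21 (SE 0.61), with an unadjusted p of 0.055 and an edgeR adjusted p of 0.595. EdgeR called few or no genes for these differences, namely 0.0222% for H against CL and 0.0% for H against LF and for CL against LF. In the latter 2, edgeR gave 1132 and 268 genes at an unadjusted p under 0.05 and DESeq2 called 0. For H against CL, DESeq2 called 68 genes, without HP (DESeq2 adjusted p = 0.372). A difference between H and beef calves in the course of HP was therefore not shown.

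Of the single steps between ages, only that of LF calves from 72 to 168 h was called for HP. From 0 to 48 h, HP changed by -0.09 (SE 0.35) in H calves, by -0.85 (SE 0.37) in CL calves and by -0.31 (SE 0.55) in LF calves, and edgeR called none of these (adjusted p = 0.906, 0.0901 and 0.738). The share of all genes called in either direction at 48 h was 6.94% in H, 14.9% in CL and 11.9% in LF calves. Single CL calves moved in opposite directions, with changes of HP from -2.06 in CL4 to 0.69 in CL7. From 48 to 72 h, HP changed by 0.18 (SE 0.36), 0.44 (SE 0.28) and 0.33 (SE 0.60) in H, CL and LF calves, with edgeR adjusted p of 0.987, 0.362 and 0.943. In that interval edgeR called 0.0% of genes in H calves (788 genes at an unadjusted p under 0.05, 11 called by DESeq2), 0.0% in LF calves (1064 and 120) and 0.00782% in CL calves. HP was nevertheless higher at 72 than at 48 h in 6 of 7 CL calves, all but CL2. With the calf as a replicate block the change in CL calves was 0.45 (SE 0.14, edgeR adjusted p = 0.0446). It was not called, since its fold change was under 1.5, in a fit where 4.89% of genes were called.

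From 72 to 168 h, HP in LF calves fell by 1.51 (SE 0.51, n = 7, edgeR adjusted p = 0.0424), a level 2.85-fold lower, in a comparison where 14% of genes were called. This call was lost with the calf as a replicate block (-1.12, adjusted p = 0.0803), where 13.7% of genes were called. It was also lost without any 1 of the calves LF1, LF2, LF4, LF5 and LF6, and without LF4 the change was -0.91 (adjusted p = 0.204). LF4 had dropped from 2732 to 237 CPM, a within-calf change of -3.53, against a rise of 0.51 in LF3. In CL calves HP changed by -1.10 (SE 0.40, edgeR adjusted p = 0.134), and in H calves by -0.40 (SE 0.38, edgeR adjusted p = 0.513), neither of which was called. With the calf as a replicate block these changes were -1.31 in CL calves (edgeR adjusted p = 0.119) and -0.44 in H calves (SE 0.13, edgeR adjusted p = 0.0572), again without a call. DESeq2 called the change in CL calves (-1.11, adjusted p = 0.0434), in a fit where it called 642 of 12770 genes. The share of genes called by edgeR was 0.0157% in CL and 9.18% in H calves. In the same calves HP was lower at 168 than at 72 h in 6 of 7 CL, 6 of 7 LF and 7 of 8 H calves. Without H1 and H3 it was lower in 5 of 6 H calves.

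When all 22 calves were pooled and the within-calf change was tested by randomly flipping its sign, the change of HP from 0 to 168 h was -1.04 on the log2 scale (SD 1.01), with lower levels in 18 of 22 calves (permutation test, 2-sided, adjusted p = 0.0004 over 8 tests). From 72 to 168 h it was -0.92 (SD 1.09), with lower levels in 19 of 22 calves (permutation test, adjusted p = 0.00062). The mean change at 48 h against 0 h was -0.41 (SD 0.91), with 13 calves lower and 9 higher (permutation test, adjusted p = 0.063). From 48 to 72 h it was 0.30 (SD 0.79), with 13 calves higher (permutation test, adjusted p = 0.10). Without H1 and H3 the changes were -1.14 from 0 to 168 h and -0.97 from 72 to 168 h, each with lower levels in 17 of 20 calves (permutation test, unadjusted p = 0.00012 and 0.00055).

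LTF, the specific granule gene, was highest at birth in each breed and was already lower at 48 h in both beef groups. In H calves at 0 h, LTF ran from 3.70 CPM in calf H1 to 37.3 CPM in calf H6, with a median of 9.93 CPM. It ran from 1.83 CPM in H4 to 29.5 CPM in H6 at 48 h, with a median of 5.72 CPM. At 72 h the H calves ran from 2.31 to 25.5 CPM, again with H4 lowest and H6 highest, with a median of 3.48 CPM. H6 therefore led the H calves on this scale at the 3 ages at which its libraries stood apart. Without TMM, H6 had 21.0 CPM at 0 h and 13.1 CPM at 48 h, against 11.965 CPM in H5 and 11.2 CPM in H3 as the next calves. At 72 h the order turned without TMM, with H5 at 16.03 CPM above H6 at 10.0 CPM, against 20.5 and 25.5 CPM with it. At 168 h the H median was 2.22 CPM, from 0.118 CPM in H1 to 8.31 CPM in H2, and H6 had come down to 2.41 CPM.

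In CL calves LTF had a median of 10.9 CPM at 0 h, from 2.46 CPM in CL7 to 24.7 CPM in CL2. Its median was 2.10 CPM at 48 h, from 0.904 CPM in CL6 to 7.09 CPM in CL4. At 72 h the median was 5.35 CPM, from 1.12 CPM in CL6 to 16.1 CPM in CL4. CL4 and CL6 thus marked the ends of the range at 48 and 72 h. By 168 h the CL median was 1.79 CPM, from 1.00 CPM in CL6 to 9.08 CPM in CL2.

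In LF calves LTF had a median of 6.41 CPM at 0 h, from 1.70 CPM in LF4 to 30.1 CPM in LF6. The range was narrowest at 48 h, from 1.40 CPM in LF5 to 4.93 CPM in LF6, with a median of 2.11 CPM. At 72 h the median was 2.63 CPM, from 0.947 CPM in LF5 to 15.8 CPM in LF7. LF5 stayed at the bottom from 48 h onwards, and the second highest LF calf at 72 h had 5.63 CPM. By 168 h the LF median was 1.15 CPM, the lowest of the 12 groups, from 0.423 CPM in LF5 to 5.78 CPM in LF4. Ordered by median, the 0 h groups of the 3 breeds came first, and LF and CL calves at 168 h last, as for HP. All 66 pairs of groups overlapped in LTF as well, which, as for HP, is no test of a difference.

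**Figure D2:**
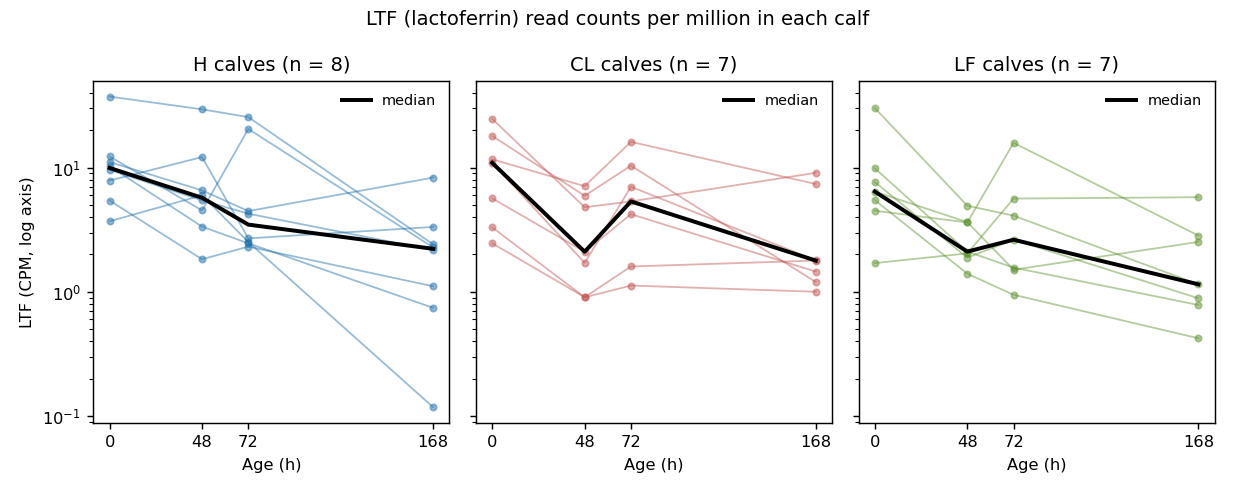
LTF in CPM (log axis) against age in hours, in 1 panel per breed, with a thin line for each calf and a black line for the median. The medians drop from 6.41 to 10.9 CPM at 0 h to 1.15 to 2.22 CPM at 168 h, with a dip at 48 h in CL and LF calves, and the lowest point is calf H1 at 168 h (0.118 CPM, 4 reads).

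From 0 to 48 h, LTF in CL calves fell by 1.72 on the log2 scale (SE 0.59, n = 7, edgeR adjusted p = 0.0361), a level 3.31-fold lower. In LF calves it fell by 1.75 (SE 0.50, n = 7, edgeR adjusted p = 0.0261), a level 3.36-fold lower. As given above for this interval, 14.9% and 11.9% of genes were called in these groups. LTF was lower at 48 h in 7 of 7 CL calves and in 6 of 7 LF calves, LF4 being higher by 0.25. The call in CL calves was lost without CL1, CL2, CL3 or CL5, with log2 changes from -1.75 to -1.5 and adjusted p from 0.0616 to 0.0938. In LF calves it was lost without LF1 (-1.71, adjusted p = 0.0681) or LF3 (-1.66, adjusted p = 0.0764). With the calf as a replicate block both calls stood. The change was -1.73 in CL calves (SE 0.22, edgeR adjusted p = 0.000302), where 2133 of 12852 genes were called. In LF calves it was -1.43 (SE 0.36, edgeR adjusted p = 0.018), where 1853 of 12794 were called.

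H calves showed a smaller change over the same 48 h, of -0.50 (SE 0.54, n = 8, edgeR adjusted p = 0.619), which was not called. LTF was lower in 6 of 8 H calves and higher in H1 and H3, by at most 0.68. The difference of this change between H and CL calves was 1.19 (SE 0.79, edgeR adjusted p = 0.882), and between H and LF calves it was 1.24 (SE 0.80, edgeR adjusted p = 1.0). Neither was called. EdgeR called 0.0% of genes in either test or for CL against LF calves, with 673, 700 and 1538 genes at an unadjusted p under 0.05 and 0, 13 and 59 called by DESeq2. The early fall of LTF in beef calves was thus not shown to differ from the change in H calves.

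Between 48 and 72 h the direction turned in CL calves. LTF was higher at 72 h in 7 of 7 CL calves, by 0.15 in CL2 to 1.98 in CL3. In the comparison of the 2 groups alone the change was 0.97 (SE 0.62, edgeR adjusted p = 0.367) and was not called. With the calf as a replicate block it was 0.92 (edgeR adjusted p = 0.0163), a call in a fit where 4.89% of genes were called. In H calves LTF changed by -0.13 (SE 0.64, edgeR adjusted p = 0.994), with 6 of 8 calves lower. In LF calves the change was 0.71 (SE 0.55, edgeR adjusted p = 0.815), with 3 of 7 calves higher. Individual H calves moved in opposite directions, with changes of 2.16 in H5 and -2.14 in H3.

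From 72 to 168 h, LTF changed by -1.65 (SE 0.70) in H, -0.95 (SE 0.65) in CL and -1.18 (SE 0.67) in LF calves, and edgeR called none of these (adjusted p = 0.121, 0.367 and 0.193). The change in H calves passed the test by DESeq2 (-1.67, adjusted p = 0.0487), in the fit of all 88 samples (-1.64, adjusted p = 0.0499) and without calf H2 (-2.31, adjusted p = 0.0459). These fits called 1374, 1653 and 1180 genes, against 1151 of 12541 in the main fit. H2 was 1 of the 2 H calves in which LTF rose over this interval, by 0.88.

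Over the whole week LTF fell in every breed. From 0 to 168 h it fell by 2.26 in H calves (SE 0.61, n = 8, edgeR adjusted p = 0.00831), a level 4.79-fold lower. In CL calves it fell by 1.69 (SE 0.62, n = 7, edgeR adjusted p = 0.0499), a level 3.23-fold lower. In LF calves it fell by 2.22 (SE 0.63, n = 7, edgeR adjusted p = 0.0171), a level 4.67-fold lower. Of all genes tested over this interval, 20.7%, 15.5% and 14.8% were called in H, CL and LF calves. LTF was lower at 168 h in 8 of 8 H calves, 7 of 7 CL calves and 6 of 7 LF calves. The exception was LF4, which had the lowest LF level at birth and the highest at 168 h, a rise of 1.71. Without H1 and H3, LTF was lower in 6 of 6 H calves.

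These 3 calls were not equally firm. In H calves the call held when any 1 calf was left out, with changes from -2.83 to -1.75 and adjusted p up to 0.0275. In CL calves the adjusted p lay at the threshold, and the call was lost without any 1 of CL1, CL3, CL4, CL5, CL6 and CL7, with adjusted p from 0.0533 to 0.15. In LF calves it was lost without LF6, the calf with the largest fall (-1.43 without it, adjusted p = 0.0917). With the calf as a replicate block, the LF call was also lost (-2.23, adjusted p = 0.0509), where 14.5% of genes were called, and the other 2 stood. Their block fits called 2818 of 12647 genes in H calves and 2010 of 12876 in CL calves. The change over the week differed by -0.55 (SE 0.89) between H and CL calves and by -0.03 (SE 0.92) between H and LF calves, with edgeR adjusted p of 0.815 and 0.996.

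Over all 22 calves LTF changed from 0 to 168 h by -2.15 on the log2 scale (SD 1.55), with lower levels in 21 of 22 calves (permutation test, adjusted p = 8e-05, from the smallest p that 100000 sign flips can give). From 0 to 48 h it changed by -1.20 (SD 0.96), with lower levels in 19 of 22 calves (permutation test, adjusted p = 0.00024). From 72 to 168 h it fell by 1.19 (SD 1.37), with lower levels in 16 of 22 calves (permutation test, adjusted p = 0.00074). Without H1 and H3 the changes were -2.10 from 0 to 168 h, with 19 of 20 calves lower, and -1.14 from 72 to 168 h, with 15 of 20 lower (permutation test, unadjusted p = 7e-05 and 0.00083). The change from 48 to 72 h was 0.24 (SD 1.12), with 12 calves higher and 10 lower (permutation test, adjusted p = 0.32).

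**Figure D3:**
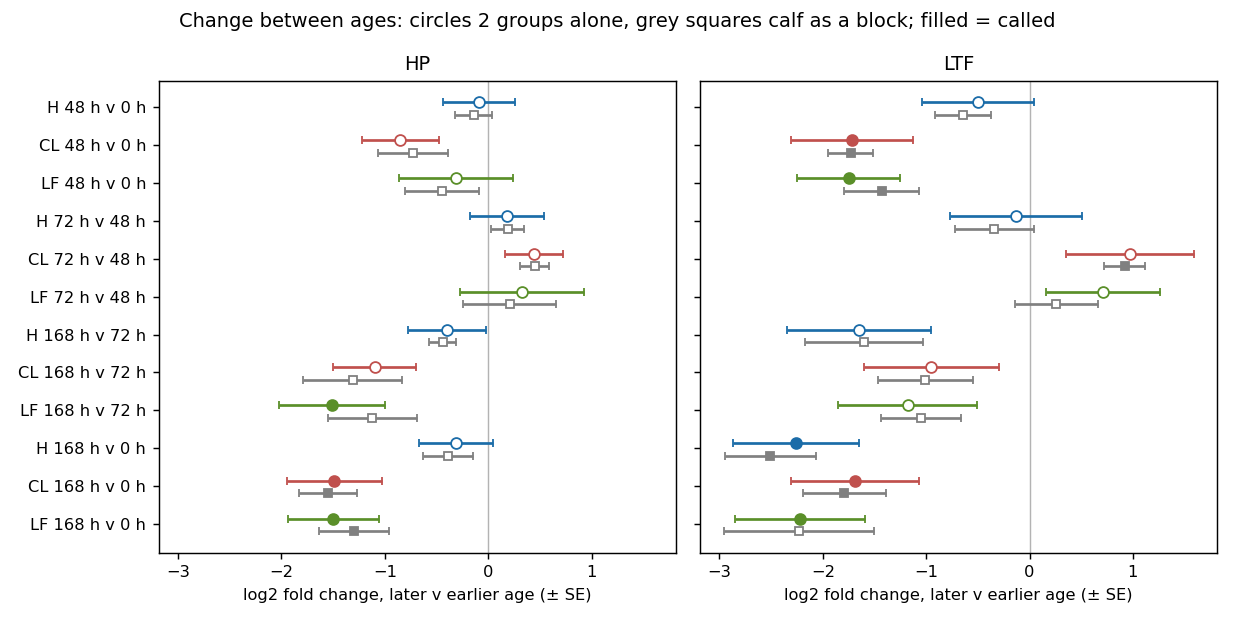
Log2 fold change (later against earlier age, ± SE) of HP and LTF in the 12 comparisons within a breed. Circles (coloured by breed) are from the 2 groups alone, grey squares are with the calf as a replicate block, and filled symbols were called; for HP the filled circles are CL and LF at 168 v 0 h and LF at 168 v 72 h, and for LTF they are CL and LF at 48 v 0 h and all breeds at 168 v 0 h.

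Pooled over the 22 calves, the number of HP reads per LTF read rose over the week. Within a library there were a median of 98.9 HP reads per LTF read at birth, of 197 after 48 h, of 256 after 72 h and of 235 after 168 h. This ratio needs no scaling between libraries, so the TMM factors of calf H6 do not enter it. It rose from 0 to 48 h by 0.81 on the log2 scale (SD 1.16), in 16 of 22 calves (permutation test, adjusted p = 0.014 over 4 tests). From 0 to 168 h it rose by 1.19 (SD 1.98), in 15 of 22 calves (permutation test, adjusted p = 0.022), and by 1.01 in 13 of 20 without H1 and H3 (permutation test, unadjusted p = 0.034). At 48 to 72 h and 72 to 168 h the mean changes were 0.05 and 0.33 (permutation test, adjusted p = 0.87 and 0.53). Without H1 and H3 the change from 72 to 168 h was 0.21 (permutation test, unadjusted p = 0.59). By breed, the mean change over the week was 2.26 in H calves, 0.26 in CL calves and 0.90 in LF calves. The ratio was higher at 168 h in 7 of 8 H calves, but in only 4 of 7 CL and 4 of 7 LF calves. Without H1 and H3 it was higher in 5 of 6 H calves, with a mean change over the week of 2.02. A difference between breeds in this change was not tested. The highest ratio, 7370 HP reads per LTF read, was that of calf H1 at 168 h, whose LTF count was 4, and the lowest, 13.6, was that of calf LF7 at 72 h.

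**Figure D4:**
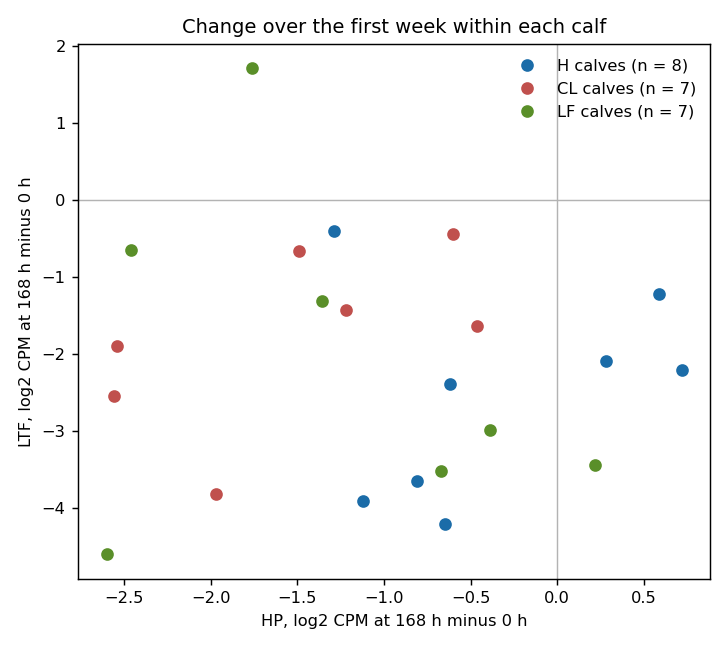
Change in log2 CPM of LTF (vertical axis) against that of HP (horizontal axis) from 0 to 168 h, with 1 point per calf coloured by breed and grey lines at no change. All calves but LF4 lie below the horizontal line, while 3 H calves and LF5 lie to the right of the vertical line.

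Levels were next compared between breeds at the same age, with H calves set against all 14 beef calves. At 168 h HP was higher in H than in beef calves by 1.33 on the log2 scale (SE 0.34, n = 8 and 14, edgeR adjusted p = 0.00716), a level 2.52-fold higher, where 9.1% of genes were called. The beef calves ran from 130.9 to 1011 CPM at that age with a median of 291 CPM, and all 8 H calves were above this median. The lowest H calf, at 335 CPM, was above 8 of the 14 beef calves, so the ranges overlapped. Without H3, the highest calf, the difference was 0.96 (adjusted p = 0.0356), and without H6 it was 1.42 (adjusted p = 0.00807). HP did not differ by the test at 0 h (0.11, SE 0.35), 48 h (0.60, SE 0.37) or 72 h (0.41, SE 0.38), with edgeR adjusted p of 0.818, 0.218 and 0.462. In these comparisons 18.1%, 12.4% and 7.78% of all genes were called in either direction.

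LTF was higher in H than in beef calves at 48 h, by 1.47 (SE 0.44, n = 8 and 14, edgeR adjusted p = 0.0149), a level 2.78-fold higher, in the comparison with 12.4% of genes called. Beef calves ran from 0.904 to 7.09 CPM with a median of 2.11 CPM, and 7 of 8 H calves were above that median, H4 being below it. H6 and H3 exceeded every beef calf. This call rested on calf H6, since without it the difference was 0.90 (adjusted p = 0.0878). At 0, 72 and 168 h the differences were 0.20 (SE 0.47), 0.52 (SE 0.58) and -0.09 (SE 0.58), with edgeR adjusted p of 0.748, 0.549 and 0.918. Without H6 the difference at 0 h was -0.26, with the sign turned, and that at 72 h was 0.00 (adjusted p = 1.0).

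Between CL and LF calves, HP had a log2 difference of 0.07 at birth (SE 0.46), of -0.46 at 48 h (SE 0.47), of -0.35 at 72 h (SE 0.49) and of 0.07 after 168 h (SE 0.41). LTF differed by 0.22 (SE 0.58), 0.26 (SE 0.47), 0.51 (SE 0.67) and 0.74 (SE 0.63) at these ages. None was called by edgeR, with adjusted p from 0.586 to 1.0, and 0.0% of all genes were called at any of the 4 ages. At an unadjusted p under 0.05 there were 1277, 2908, 563 and 243 genes from birth to 168 h, and DESeq2 called 9, 557, 2 and 0. The widest approximate 95% interval, for LTF at 72 h, ran from -0.80 to 1.83, and that for LTF at 168 h ran from -0.51 to 1.98, so these samples leave room for sizeable differences in LTF.

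**Figure D5:**
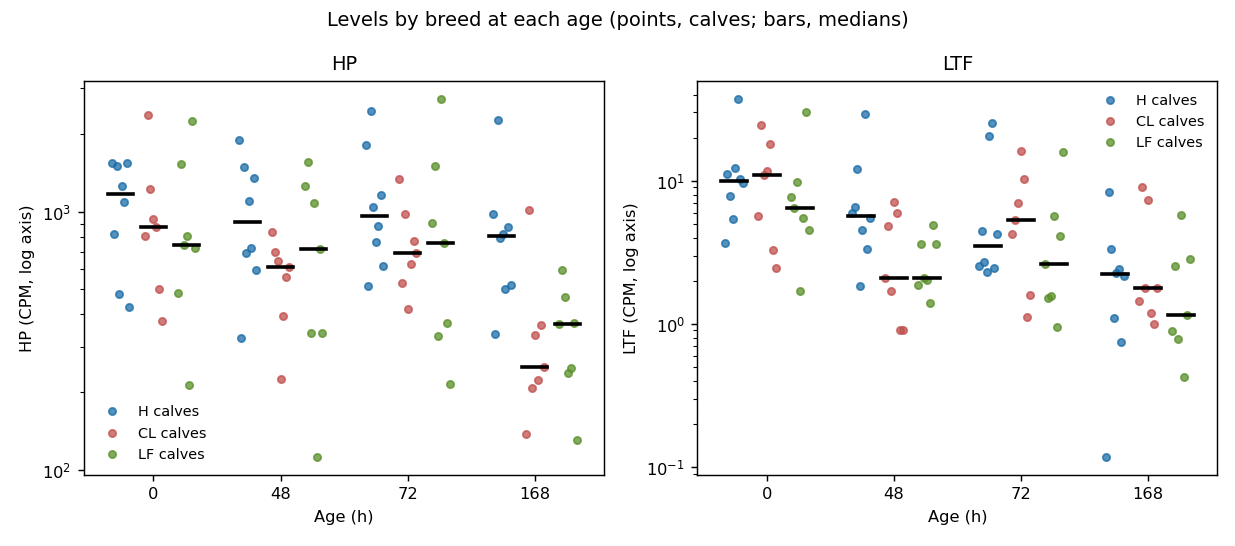
HP and LTF in CPM (log axes) at each age, with 1 point per calf, coloured by breed, and a black bar at each group's median. At 168 h the H median of HP is 805 CPM against 249 and 369 CPM in CL and LF calves, and at 48 h the H median of LTF is 5.72 CPM against 2.10 and 2.11 CPM, with overlapping points throughout.

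Both genes varied between calves of the same breed and age more than most genes. The within-group SD of log2 CPM was 0.91 for HP, above that of 93% of the 13801 genes compared, and 1.24 for LTF, above that of 97.2%, against a median gene of 0.35. On average over the 4 ages, differences shared by the samples of a calf made up 0.40 of this variance for HP and 0.46 for LTF (intraclass correlation), against a median of 0.19. This does not show that differences lasted the week, since levels at birth and at 168 h had r = 0.44 for HP and 0.20 for LTF. For LTF the share also takes in the libraries of H6 whose CPM was raised by TMM. These shares were above those of 84.3% and 89.4% of genes. LTF had a median of 94.5 reads in a library, and the part of counting error in its spread was not tested.

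A calf's level at 1 age went with its level at the next in most but not all intervals. For HP, Pearson's r over 22 calves was 0.66 between 48 and 72 h (Spearman's rho 0.75, permutation adjusted p = 0.0048 and 0.00096 over 8 relations) and 0.78 without CL4 and LF5, the 2 calves farthest from the median. Between 0 and 48 h it was 0.54 (rho 0.53, permutation adjusted p = 0.02 and 0.019), and 0.38 without CL2 and LF5. Between 72 and 168 h it was 0.37 (rho 0.25, permutation adjusted p = 0.11 and 0.26), and 0.39 without LF4 and LF7. Within breeds this last relation went apart, with r = 0.91 in H calves (exact permutation p = 0.00084), -0.66 in CL calves (exact permutation p = 0.11) and 0.28 in LF calves (exact permutation p = 0.55). Without H1 and H3 it was 0.81 in the other 6 H calves (exact permutation p = 0.056) and 0.10 over 20 calves. From 48 to 72 h, r was 0.84 in H, 0.74 in CL and 0.51 in LF calves, and from 0 to 48 h it was 0.70, 0.06 and 0.64. Birth level and 168 h level of HP had r = 0.44 (rho 0.49, permutation adjusted p = 0.055 and 0.032), and 0.35 without CL2 and LF5. Within H, CL and LF calves r was 0.51, 0.53 and 0.38. Without H1 and H3 it was 0.35 over 20 calves and 0.27 in the other 6 H calves.

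For LTF, r was 0.65 between 0 and 48 h (rho 0.60, permutation adjusted p = 0.0048 and 0.01) and 0.54 without H6 and LF4. It was 0.61 between 48 and 72 h (rho 0.54, permutation adjusted p = 0.0069 and 0.019) and 0.41 without CL6 and H6. The value between 72 and 168 h was 0.48 (rho 0.61, permutation adjusted p = 0.04 and 0.01), 0.52 without H5 and H6, and 0.51 without H1 and H3. Within H, CL and LF calves r was 0.66, 0.86 and 0.49 for 0 and 48 h, 0.54, 0.89 and 0.48 for 48 and 72 h, and 0.35, 0.49 and 0.65 for 72 and 168 h. Levels at birth and at 168 h had r = 0.20 (rho 0.26, permutation adjusted p = 0.37 and 0.26), 0.38 without H6 and LF4, and 0.10 without H1 and H3. Within H, CL and LF calves r was 0.55, 0.56 and -0.56. In the 6 H calves other than H1 and H3 it was 0.27, and for 72 and 168 h it was 0.32.

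Calves high in HP were not in general high in LTF. At 0 h r was 0.50 between the genes over 22 calves (rho 0.55, permutation adjusted p = 0.072 and 0.036 over 4 ages) and 0.45 without CL2 and LF5. Within breeds at 0 h it was 0.90 in CL calves (exact permutation p = 0.0054), 0.44 in LF calves (exact permutation p = 0.31) and 0.04 in H calves (exact permutation p = 0.92), so the pooled value did not hold in each breed. At 48, 72 and 168 h r was 0.15, -0.26 and -0.04 (rho 0.13, -0.21 and -0.04, permutation adjusted p for r = 0.65, 0.50 and 0.86). Without the 2 calves farthest in HP it was 0.12, -0.19 and -0.10 at these ages. In H calves r was -0.01, -0.43 and -0.33 at these ages, while it was -0.59, -0.37 and 0.70 in CL calves. The values in LF calves were 0.40, -0.29 and -0.27.

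Over the 88 libraries, LTF ranked 3056 among 13800 genes by likeness to HP, with r = 0.25, and r was 0.01 once group means were subtracted. These 88 points share calves and ages, so the values are a description. No gene reached r of 0.8 with HP, and the closest were ENSBTAG00000047520 (0.76) and ENSBTAG00000006505 (0.75). With LTF, 4 genes exceeded 0.8, the closest being ENSBTAG00000002976 (0.88) and ENSBTAG00000002635 (0.86), each with r = 0.83 after group means were subtracted. LTF thus had closer partners in these libraries than HP.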

How the data were processed

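Whole blood RNA of 88 samples from 22 calves was sequenced by the authors as single-end mRNA libraries. Per the labels and the study's methods, the authors trimmed reads with cutadapt, used STAR for alignment to the cattle build UMD3.1 with Ensembl annotation, and deposited raw read counts per gene without normalization. STAR leaves out reads that align to several places. The unstranded count was used, since 50.57% and 49.78% of it fell on each strand. Breed, age and calf came from the labels, and the animals' tag numbers paired samples across ages, because the replicate numbers in the titles do not follow the calves. In H calves the RNA numbers of a calf's later samples follow that of its first at fixed steps, except for the 168 h samples of H1 and H3, whose tag numbers are the sole link to these calves. A gene's deviations from its group means were shared between ages of 1 calf (median intraclass correlation 0.19 over 13801 genes). All 280 pairs of samples within groups differed (smallest chi-square per degree of freedom 36.4).

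Counts were tested with edgeR 4.0.16 (quasi-likelihood, robust, TMM, default filter on low counts, R 4.3.3), with only the groups compared in a fit, and p-values were adjusted by Benjamini-Hochberg over all genes tested. There were 12 comparisons between ages within a breed, 8 between breeds and 6 of changes between breeds. CPM used the TMM-adjusted library size, and log2 CPM a prior count of 2. Within-calf changes over 22 calves and correlations were tested by 100000 permutations, or exactly within a breed (Python 3.11.15, scipy 1.17.1). HP and LTF, and the lists around them, were chosen with earlier results of these data known. Gene lists of granule, acute phase, iron handling and cell type marker genes, fixed by symbol, were not used because 0 of them could be matched to the identifiers, and no sequence or coordinate was used here. The rule for named genes was HP and LTF in full and the genes most like them over 88 samples, here given by identifier. Alternatives were DESeq2 1.42.0, RLE scaling, library sizes without the top 20 genes, no filter, 1 fit of all 88 samples without and with the L number in the labels, the calf as a replicate block, removal of the 9 samples labelled R, and each calf left out. The sign-flip tests, the differences between breeds from 0 to 168 h, the HP to LTF ratio, correlations of a gene between ages and the comparisons of H with beef calves without H6 or H3, and within-calf results without H1 and H3, were added after the data had been seen. Intervals are the estimate ± 1.96 SE, a normal approximation that is narrower than the quasi-likelihood test would give with so few calves.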

Additional observations from a re-analysis of the deposited data

Results flagged for a closer look

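In 8 of 24 combinations of gene, breed and age, the highest calf lay farther from the next in CPM than Dixon's 95% limit allows. That limit assumes a normal spread, under which about 1 in 20 groups would hold such a sample. All 8 were the highest calf of their group, and the ratio was not taken on the log2 scale. The rate of 1 in 20 therefore need not hold for these CPM, and the same calf enters several groups. For HP, these were calf H3 at 168 h (2266 CPM, next 977, median 805), CL2 at 0 h (2363 CPM, next 1222, median 871) and CL2 at 168 h (1011 CPM, next 364, median 249). CL2 thus stood out at both ends of the week and not between, when it had 696 CPM at 48 h and 529 CPM at 72 h.

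For LTF, H6 stood apart at 0 h (37.3 CPM, next 12.3, median 9.93) and at 48 h (29.5 CPM, next 12.2, median 5.72). H2 did so at 168 h (8.31 CPM, next 3.33, median 2.22), LF6 at 0 h (30.1 CPM, next 9.87, median 6.41) and LF7 at 72 h (15.8 CPM, next 5.63, median 2.63). The libraries of H6 at 0 and 48 h were those in which 41.0% and 49.1% of reads aligned to several places, and the part of this in its LTF level was not tested. Without TMM, H6 had 21.0 CPM at 0 h against 11.965 CPM in the next calf, and 13.1 CPM at 48 h against 11.2 CPM, so at 48 h its distance from the next calf came with the scaling of its library. LF6 was also the highest LF calf in HP at 0 h (2236 CPM), and CL2 the highest CL calf in LTF at 0 h (24.7 CPM).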

How the results depend on the processing

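Of the 52 edgeR results, 10 were called, and all 10 kept their direction under every alternative run. Apart from leaving out calves, 350 of 384 alternative values kept both direction and call. Calls lost were these. LTF in CL calves at 48 v 0 h was -1.70 without a filter on low counts, -1.53 without the samples labelled R, -1.71 in 1 fit of all 88 samples and -1.67 with the L number. LTF in CL calves at 168 v 0 h was -1.62 with library sizes without the top genes, -1.70 without a filter, -1.40 without the samples labelled R, -1.69 in 1 fit and -1.43 with the L number. LTF in LF calves at 48 v 0 h was -1.74 in 1 fit. HP in CL calves at 168 v 0 h was -1.30 without the samples labelled R, and in LF calves -1.23 with the L number. HP in LF calves at 168 v 72 h was -1.52 without a filter and -1.37 without the samples labelled R. With the calf as a replicate block, HP in LF calves at 168 v 72 h (-1.12) and LTF in LF calves at 168 v 0 h (-2.23) lost their calls, LTF in CL calves at 72 v 48 h (0.92) gained one, and no other call changed. Calls were also gained by DESeq2 for LTF in H calves (-1.67) and HP in CL calves (-1.11) at 168 v 72 h, and in 1 fit for LTF in H calves (-1.64). The cause of these changes was not tested.

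Signs turned for values that were never called. HP in H calves became 0.18 at 48 v 0 h and -0.04 at 72 v 48 h without the samples labelled R, and -0.02 at 72 v 48 h with the L number. HP of H against beef calves at 0 h became -0.04 with library sizes without the top genes. The difference of changes from 0 to 168 h between H and LF calves in LTF became 0.00 with those sizes and 0.25 without the samples labelled R. Between CL and LF calves in HP it became -0.07 with those sizes, -0.01 without a filter and in 1 fit, and -0.25 with the replicate block. The block also turned the CL against LF difference of the LTF change from 0 to 48 h (-0.27). The correlation of HP with LTF at 168 h became 0.02 without the samples labelled R. The likeness over 88 samples fell from 0.25 to 0.01 once group means were subtracted.

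Leaving out 1 calf at a time gave, for results whose call or sign changed, the following ranges. For HP they were -1.66 to -1.35 (CL, 168 v 0 h), -1.64 to -1.14 (LF, 168 v 0 h), -1.75 to -0.91 (LF, 168 v 72 h), -0.59 to 0.07 (LF, 48 v 0 h) and -0.09 to 0.49 (LF, 72 v 48 h). For LTF they were -1.99 to -1.50 (CL, 48 v 0 h), -2.0 to -1.37 (CL, 168 v 0 h), -1.94 to -1.28 (LF, 48 v 0 h), -2.92 to -1.43 (LF, 168 v 0 h), -0.62 to 0.10 (H, 72 v 48 h) and -2.31 to -1.13 (H, 168 v 72 h). Without H6 or H3, LTF of H against beef calves was -0.26 to 0.27 at 0 h, 0.90 to 1.38 at 48 h and 0.00 to 0.65 at 72 h, and without LF1, HP of CL against LF calves at 0 h was -0.05. Other scalings moved the median gene by up to 0.21 (H against beef calves at 72 h) and by 0.17 for H calves at 168 v 0 h, 0.15 and 0.11 for H against beef calves at 48 and 168 h. LTF had 4 to 709 reads in a library, and the effect of depth on its lowest levels was not tested.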

Other observations

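LF5 had the lowest HP of all 88 samples at 48 h (112 CPM) and the largest rise of HP of any calf from 48 to 72 h, by 2.75 on the log2 scale to 755 CPM, while its LTF was the lowest of the LF calves at both ages (1.40 and 0.947 CPM). LF4 showed the opposite order of the genes over the week. Its HP fell from 805 to 237 CPM by way of 2732 CPM at 72 h, and its LTF rose from 1.70 CPM at birth to 5.63 CPM at 72 h and 5.78 CPM at 168 h. LF7 had 15.8 CPM of LTF and 215 CPM of HP at 72 h, the highest and lowest values of LF calves at that age. H5 rose in LTF from 4.52 to 20.5 CPM between 48 and 72 h while its HP went from 1102 to 764 CPM. These calves were singled out after their values were seen.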
